A study of Mus musculus with 8 samples.

Results

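The 9 genes described here encode the core of the Hedgehog pathway: the ligands Shh, Ihh and Dhh, the receptor Ptch1, the signal transducer Smo, the transcription factors Gli1, Gli2 and Gli3, and the secreted-ligand trap Hhip. They were chosen by name, with earlier results of these data known. They are the rows of the count table whose mouse Ensembl identifiers carry these symbols, and all 9 were found among 46517 genes. Each of the 9 was also among the 16469 genes with enough counts to be tested. Hedgehog ligands are usually released by an epithelium and bind Ptch1 on neighbouring mesenchyme, which relieves the block of Ptch1 on Smo and turns GLI proteins, at the primary cilium, into activators. Ptch1, Hhip and Gli1 are themselves switched on by the signal in many tissues, and Ptch1 and Hhip bind ligand and so limit its reach. In the fetal urogenital tract of mice the pathway is best known for Shh from epithelium acting on the mesenchyme of the bladder and external genitalia, and for Dhh from Sertoli cells acting on the Leydig lineage of the testis.

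RNA was sequenced from the epididymal duct, which forms from the Wolffian duct, of E18.5 mouse embryos. There were 4 libraries labelled Ptk7 conditional knockout (Ptk7 cKO 1, 2, 4 and 5), from embryos with a loxP-flanked Ptk7 allele over the disrupted Xst87 allele. The 4 control libraries (1, 3, 4 and 6) came from embryos with the same loxP-flanked allele over a wild-type Ptk7 allele. Both groups carried the T-Cre transgene, so the controls could also lose their loxP-flanked copy, and both carried the mT/mG reporter of membrane Tomato and membrane EGFP. T-Cre is driven by the promoter of T (brachyury), which is active in early mesoderm, the source of both duct epithelium and its mesenchyme. The labels do not say whether a library is 1 embryo or a pool, nor whether libraries are from separate litters. The p-values therefore reflect only how these samples vary, some of which may be technical.

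Total counts ran from 24807970 to 29590547 per library. Ptk7 itself stood at 7.33, 7.59 and 12.5 CPM in the libraries labelled Ptk7 cKO 1, 2 and 4 and at 194 CPM in the library labelled Ptk7 cKO 5, against 112.5 to 313 CPM in control. CPM is the number of counts of a gene per 1000000 counts of its library, whose size is scaled by TMM factors. The Ptk7 level of the library labelled Ptk7 cKO 5 thus goes against its label, and the comparison of each of the 9 genes is given with and without it. All 15 duct epithelium markers and all 12 mesenchyme markers averaged at least 1 CPM, so both tissues of the labelled organ were present.

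Set beside each other per length, the 9 genes spanned a wide range of levels. Smo had the highest level, 69.3 ± 6.41 CPM per kilobase of exon (SD over all 8 libraries), above that of 94.3% of tested genes. Ptch1 followed at 36.8 ± 8.56 CPM per kilobase, then Gli1 at 18.0 ± 1.66, Shh at 12.9 ± 3.37, Hhip at 9.07 ± 3.26, Gli2 at 8.58 ± 0.53 and Gli3 at 4.47 ± 0.51. Ihh (1.06 ± 0.52) and Dhh (0.23 ± 0.10) were low, and Dhh exceeded only 4.99% of tested genes. In all, 4 neighbouring pairs in this order had overlapping ranges over the libraries. Gli1 and Shh overlapped, with Gli1 the higher in 7 of 8 libraries. Shh and Hhip overlapped although Shh was higher in 8 of 8. Hhip and Gli2 could not be ordered, since Hhip was higher in 4 of 8 libraries, those of the control group. Ihh and Dhh overlapped in range while Ihh was higher in 8 of 8.

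**Figure D1:**
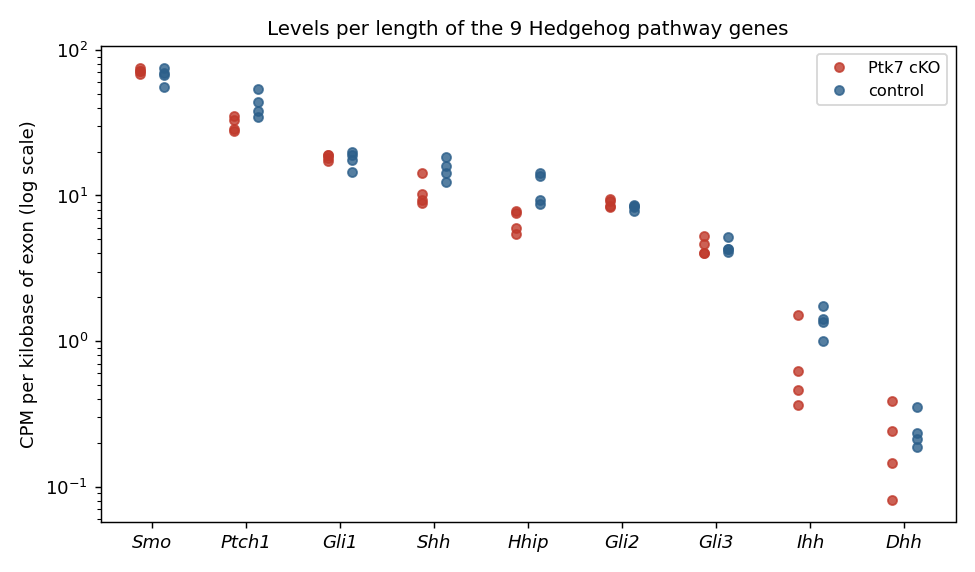
Level of each Hedgehog pathway gene in CPM per kilobase of exon, on a log axis, with 1 point per library and Ptk7 cKO left of control. Smo and Ptch1 stand above the rest, Ihh and Dhh lie lowest, and the ranges of the 2 groups separate only in Hhip.

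Whether removal of Ptk7 alters these genes was asked by comparing the Ptk7 cKO label with control over all genes. The ligand Shh, its receptor Ptch1 and the trap Hhip had lower means in the libraries labelled Ptk7 cKO, at 69.9%, 73.0% and 58.6% of the control mean, and the low ligand Ihh stood at 53.6%. In these 4 genes the library labelled Ptk7 cKO 5 lay below every control. It had 29.1 CPM of Shh, 243 of Ptch1, 29.4 of Hhip and 1.10 of Ihh. The lower values thus did not follow the Ptk7 level in that library, and the cause was not tested. Smo, Gli1, Gli2 and Gli3 stood between 100.3% and 107.4% of the control mean. None of the 9 passed an adjusted p of 0.05 in edgeR's quasi-likelihood test with Benjamini-Hochberg adjustment over all genes. That test called 0 of 16469 genes (0%). At an unadjusted p under 0.05 edgeR gave 0 members higher and 4 lower (Hhip, Ptch1, Shh and Ihh), beside 3.5% of all genes higher and 4.87% lower, or 8.37% in either direction. The median log2 fold change of the 9 was -0.20, and that of all tested genes was 0.01. The median of the 9 is the value of Dhh, a gene with few counts, and 4 members lay above 0 and 5 below. The members were chosen with earlier results of these data known, so these shares are not a test of the 9.

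DESeq2 called 1 of the 9, Hhip, beside 184 of all genes (1.13%), while limma voom with quality weights called 0 of all genes. Without the library labelled Ptk7 cKO 5, edgeR gave 0 members higher and 3 lower at an unadjusted p under 0.05 (Hhip, Ptch1 and Shh), beside 3.74% of all genes higher and 5% lower, or 8.74% in all, and it called 1 gene after adjustment (0.00599%), Ptk7. DESeq2 without that library called Hhip again, beside 1.1% of all genes. These fits share all other libraries, so their results are not separate evidence.

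**Figure D2:**
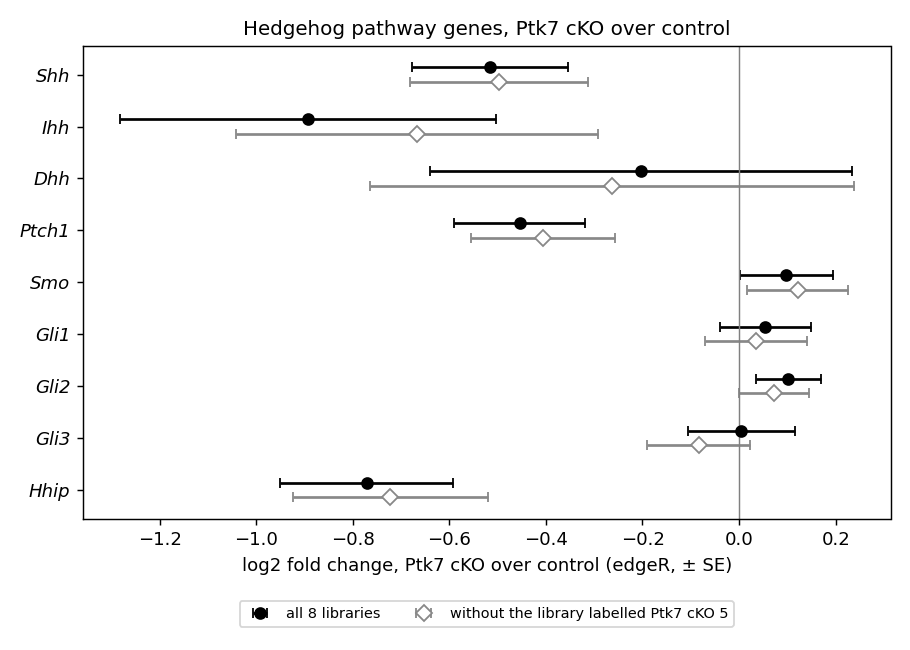
log2 fold change of each Hedgehog pathway gene, Ptk7 cKO over control, from edgeR, with bars of 1 SE; filled circles use all 8 libraries and open diamonds leave out the library labelled Ptk7 cKO 5. Shh, Ihh, Dhh, Ptch1 and Hhip lie left of 0 in both fits, with the bars of Dhh crossing 0. Smo, Gli1, Gli2 and Gli3 lie between -0.08 and 0.12.

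Shh (ENSMUSG00000002633; GRCm38 chromosome 5, 28456815 to 28467256, minus strand) was the most abundant of the 3 ligands, making up 82.3% to 95.3% of their summed level per kilobase in the libraries labelled Ptk7 cKO and 87.9% to 92.9% in control. It stood at 25.2, 40.5, 26.5 and 29.1 CPM in the libraries labelled Ptk7 cKO 1, 2, 4 and 5, against 40.9, 45.3, 52.3 and 35.0 CPM in controls 1, 3, 4 and 6. The libraries labelled Ptk7 cKO 1, 4 and 5 lay below every control, and Ptk7 cKO 2 lay within the control range. The means were 30.3 ± 6.96 CPM and 43.4 ± 7.27 CPM (SD, n = 4 each). The log2 fold change was -0.52 (SE 0.16, unadjusted p = 0.00898, edgeR adjusted p = 0.381), and -0.50 (SE 0.18, edgeR adjusted p = 0.481) without the library labelled Ptk7 cKO 5.

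Ihh (ENSMUSG00000006538; chromosome 1, 74945315 to 74951672, minus strand), best known from cartilage and gut, rested on 27 to 120 counts per library in Ptk7 cKO and 92 to 135 in control. It had 4.61, 1.91, 1.41 and 1.10 CPM in the libraries labelled Ptk7 cKO 1, 2, 4 and 5, against 5.33, 3.06, 4.14 and 4.30 CPM in controls 1, 3, 4 and 6. All libraries labelled Ptk7 cKO except number 1 lay below the lowest control. The log2 fold change was -0.89 (SE 0.39, edgeR adjusted p = 0.582). It was -1.50 without the library labelled Ptk7 cKO 1 (edgeR adjusted p = 0.193) and -0.67 without that labelled Ptk7 cKO 5 (edgeR adjusted p = 0.647). Leaving out Ptk7 cKO 1 was the only omission of a single library that moved this value by more than 1.5 times.

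Dhh (ENSMUSG00000023000; chromosome 15, 98893031 to 98898540, minus strand), the ligand of Sertoli and Schwann cells, was counted only 5 to 24 times per library in Ptk7 cKO and 12 to 24 times in control. It had 0.92, 0.19, 0.34 and 0.57 CPM in the libraries labelled Ptk7 cKO 1, 2, 4 and 5, against 0.55, 0.50, 0.84 and 0.44 CPM in controls 1, 3, 4 and 6. The libraries labelled Ptk7 cKO 2 and 4 lay below every control, Ptk7 cKO 1 lay above every control, and Ptk7 cKO 5 lay within the control range. Dhh had a log2 fold change of -0.20 with a 95% interval from -1.17 to 0.76 (-0.26, edgeR adjusted p = 0.894, with Ptk7 cKO 5 left out). Of its exons, 546 bases are shared with Rhebl1 on the same strand (3.08 CPM), so reads from these bases cannot be assigned with certainty. Markers of the cells that make Dhh elsewhere are given beside it. The 8 Schwann cell markers summed to 35.3 to 42.9 CPM in Ptk7 cKO and 33.8 to 44.4 CPM in control, mostly from Erbb3, whose log2 fold change was -0.19. The other 7 had log2 fold changes above 0, and 2 of them, Sox10 (0.86) and Foxd3 (0.97), had an unadjusted edgeR p under 0.05. The Sertoli cell marker Amh averaged 0.21 CPM in Ptk7 cKO and 0.16 CPM in control. The 8 Sertoli cell markers together summed to 109.5 to 134 CPM in Ptk7 cKO and 109.9 to 142.6 CPM in control, mostly from Cldn11 (93.2 CPM over all libraries), and 3 of them averaged under 1 CPM. The part of these cells in the Dhh values was not tested.

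**Figure D3:**
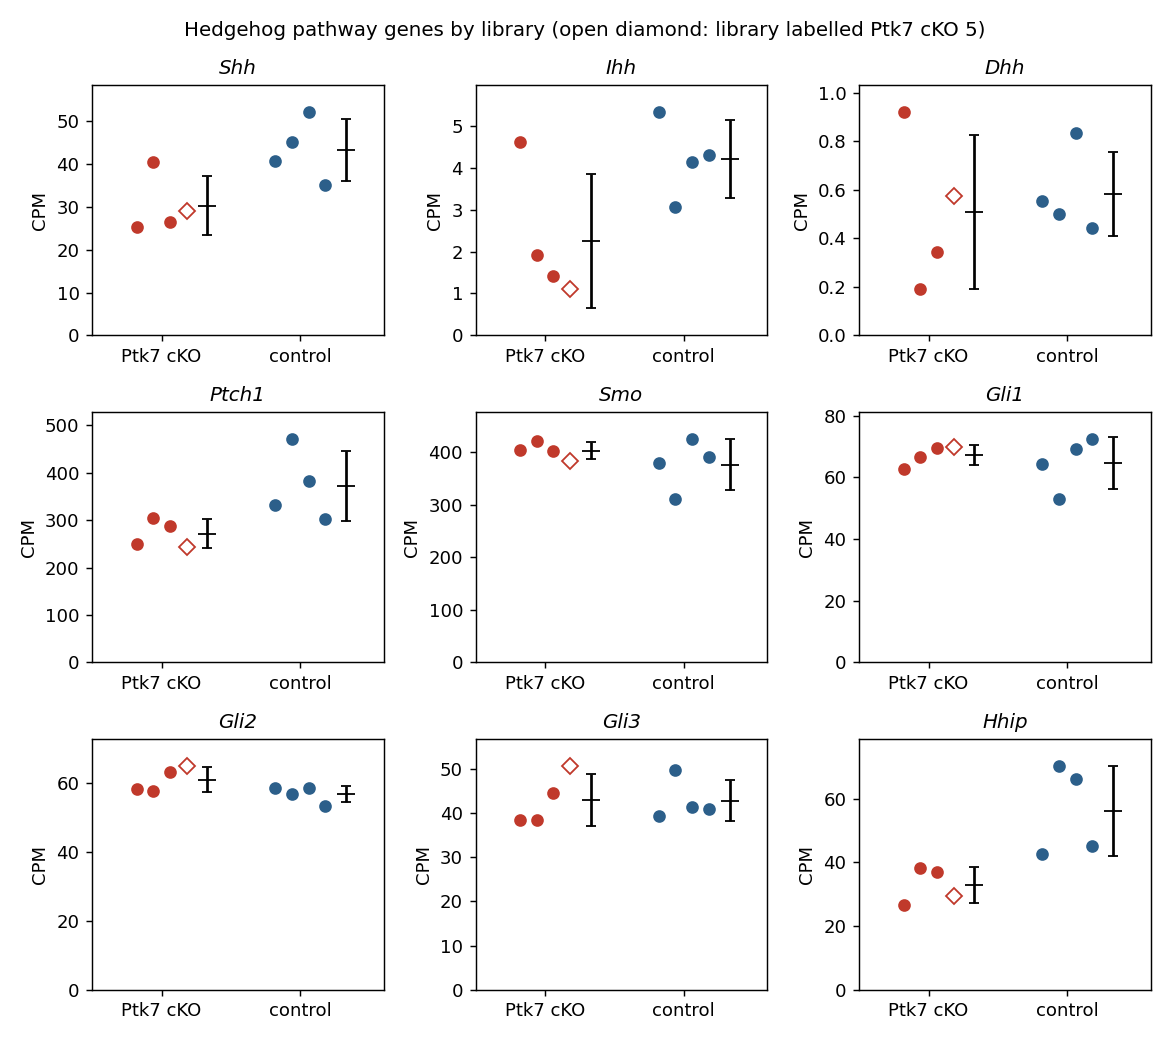
CPM of the 9 Hedgehog pathway genes, 1 point per library, Ptk7 cKO left of control, with black bars for the mean and SD of each group (n = 4 each) and an open diamond for the library labelled Ptk7 cKO 5. The groups are separate in Hhip, meet in Shh and Ptch1, and lie over each other in Smo, Gli1 and Gli3. In Gli2 they overlap in part, with the libraries labelled Ptk7 cKO 4 and 5 above every control.

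Duct epithelium markers in the same libraries are given beside the Shh values because Shh is usually an epithelial transcript. Of the 15 epithelium markers 9 had an unadjusted edgeR p under 0.05 and a lower mean in Ptk7 cKO, and 1 had a higher mean. In all, 13 of the 15 had a log2 fold change below 0, and the median was -0.36. Their summed level was 1002 to 1419 CPM in Ptk7 cKO and 1182 to 1384 CPM in control. This sum came largely from Epcam, Krt8 and Krt18 (254, 236 and 197 CPM over all libraries), none of which had an unadjusted edgeR p under 0.05. Fewer epithelial cells and less RNA per cell cannot be told apart in such bulk samples. As ratios within a library, with the partners picked after their values were seen, Shh per Epcam (an adhesion molecule of epithelial surfaces) was 0.116, 0.136, 0.123 and 0.132 in the libraries labelled Ptk7 cKO 1, 2, 4 and 5, against 0.148, 0.158, 0.193 and 0.142 in controls 1, 3, 4 and 6. Every ratio in Ptk7 cKO lay below every ratio in control. Shh per Cdh1 (E-cadherin) was 0.478 ± 0.038 in Ptk7 cKO and 0.487 ± 0.099 in control (SD, n = 4 each), with the control range of 0.397 to 0.629 enclosing all values of Ptk7 cKO. The level of Shh relative to epithelium therefore depended on the epithelial gene it was set against, and the part of epithelial content in the Shh values was not tested. Markers of urothelium, another Shh-producing epithelium nearby, summed to 1.23 to 2.29 CPM in Ptk7 cKO and 1.81 to 2.87 CPM in control, and 5 of these 6 genes averaged under 1 CPM.

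Ptch1 (ENSMUSG00000021466; chromosome 13, 63508328 to 63573598, minus strand), the receptor and a target of the pathway, stood at 249, 305, 287 and 243 CPM in the libraries labelled Ptk7 cKO 1, 2, 4 and 5, against 331, 471, 382 and 302 CPM in controls 1, 3, 4 and 6. The groups met at a single pair, where Ptk7 cKO 2 stood just above control 6. The means were 271 ± 30.1 CPM and 372 ± 73.9 CPM (SD, n = 4 each). The log2 fold change was -0.45 (SE 0.14, unadjusted p = 0.00679, edgeR adjusted p = 0.358), and -0.41 (SE 0.15, edgeR adjusted p = 0.476) without the library labelled Ptk7 cKO 5.

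Hhip (ENSMUSG00000064325; chromosome 8, 79966115 to 80058006, minus strand), a membrane glycoprotein that binds all 3 ligands, showed the smallest p of the 9. It had 26.7, 38.3, 37.0 and 29.4 CPM in the libraries labelled Ptk7 cKO 1, 2, 4 and 5, against 42.4, 70.2, 66.3 and 45.2 CPM in controls 1, 3, 4 and 6. Every library labelled Ptk7 cKO lay below every control, and Hhip was the only 1 of the 9 without overlap, beside 5.76% of all tested genes. The means were 32.8 ± 5.65 CPM and 56.0 ± 14.2 CPM (SD, n = 4 each). The log2 fold change was -0.77 (SE 0.18, unadjusted p = 0.00136), with an edgeR adjusted p of 0.217, the 101st smallest p of all genes tested. In DESeq2 Hhip fell (log2 fold change -0.77, adjusted p = 0.00599; -0.72, adjusted p = 0.0368 without the library labelled Ptk7 cKO 5). Leaving the same library out of the edgeR fit gave -0.72 (SE 0.20, adjusted p = 0.327).

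Ptch1 and Hhip, among the 4 members lower at an unadjusted edgeR p under 0.05, are shown with the RefSeq sequence around a transcription start (GRCm38.p6, 250 bases before to 50 after, 5′ to 3′ on the gene's strand). The Ptch1 window is chr13:63565686-63565985 and the Hhip window is chr8:80057959-80058258, both on the minus strand. The Hhip window spans the 5′ end of its gene, at 80058006. The Ptch1 window lies inside its gene, whose 5′ end is at 63573598. The sequence at that end is not shown, so the motif result for Ptch1 holds only for the printed window. Capitals mark CCACCC or its reverse complement GGGTGG, the centre of the GLI binding consensus.
Ptch1: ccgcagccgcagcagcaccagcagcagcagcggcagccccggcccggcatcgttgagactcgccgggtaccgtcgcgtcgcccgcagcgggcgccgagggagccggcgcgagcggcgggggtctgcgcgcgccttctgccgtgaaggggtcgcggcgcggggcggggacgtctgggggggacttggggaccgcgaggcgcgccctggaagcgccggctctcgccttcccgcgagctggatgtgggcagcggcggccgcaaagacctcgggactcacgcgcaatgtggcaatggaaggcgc
Hhip: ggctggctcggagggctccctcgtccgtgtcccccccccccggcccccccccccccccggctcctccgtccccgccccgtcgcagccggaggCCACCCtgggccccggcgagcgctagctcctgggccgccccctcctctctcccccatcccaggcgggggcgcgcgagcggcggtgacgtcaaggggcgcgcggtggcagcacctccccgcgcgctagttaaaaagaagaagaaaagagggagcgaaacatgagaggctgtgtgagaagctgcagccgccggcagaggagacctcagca
Windows were available for 7 members, including both printed ones, but not for Shh or Gli1. The full consensus GACCACCCA, read on both strands, was in 0 of these 7 windows, against 0.253% of 32851 windows of all genes. The shorter CCACCC, which lies within it, occurred once in the Hhip window and not in that of Ptch1. It occurred in the windows of Ihh, Gli2, Smo, Hhip, Gli3 and Dhh, 6 of 7, and in 31.5% of all windows. Both printed windows are rich in G and C, at 76.3% for Ptch1 and 73.7% for Hhip, where the median of all windows was 52.7%. CCACCC is itself rich in C, and the part of base composition in its share among the members was not tested.

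Smo (ENSMUSG00000001761; chromosome 6, 29735503 to 29761365, plus strand), the transducer held in check by Ptch1, had 404, 422, 401 and 384 CPM in the libraries labelled Ptk7 cKO 1, 2, 4 and 5, against 379, 310, 425 and 391 CPM in controls 1, 3, 4 and 6. The cKO values all lay within the control range. Its log2 fold change was 0.10 (SE 0.10, edgeR adjusted p = 0.797), with a 95% interval from -0.11 to 0.31. It was 0.12 (SE 0.10, edgeR adjusted p = 0.759) once Ptk7 cKO 5 was left out.

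Gli1 (ENSMUSG00000025407; chromosome 10, 127329889 to 127341589, minus strand), an activator whose own transcription is a usual readout of the pathway, had 62.9, 66.5, 69.7 and 70.0 CPM in the libraries labelled Ptk7 cKO 1, 2, 4 and 5, against 64.4, 53.1, 69.1 and 72.5 CPM in controls 1, 3, 4 and 6. The groups overlapped, and control 3 was the lowest of all 8. The means were 67.3 ± 3.33 CPM and 64.8 ± 8.45 CPM (SD, n = 4 each). The log2 fold change was 0.05 (SE 0.09, edgeR adjusted p = 0.889), with a 95% interval from -0.15 to 0.26. It was 0.04 (SE 0.10, edgeR adjusted p = 0.936) without the library labelled Ptk7 cKO 5 and -0.03 without control 3.

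Gli2 (ENSMUSG00000048402; chromosome 1, 118834132 to 119053619, minus strand), the main activator at the start of signalling, had 58.4, 57.6, 63.1 and 64.9 CPM in the libraries labelled Ptk7 cKO 1, 2, 4 and 5, against 58.4, 56.8, 58.7 and 53.4 CPM in controls 1, 3, 4 and 6. Its log2 fold change was 0.10 (SE 0.07, edgeR adjusted p = 0.714; 0.07 without the library labelled Ptk7 cKO 5, SE 0.07, edgeR adjusted p = 0.791). Relative to its mean, Gli2 varied least of the 9 between libraries. Gli3 (ENSMUSG00000021318; chromosome 13, 15463235 to 15730026, plus strand), chiefly a repressor, had 38.5, 38.4, 44.4 and 50.6 CPM in the libraries labelled Ptk7 cKO 1, 2, 4 and 5, against 39.2, 49.8, 41.3 and 41.0 CPM in controls 1, 3, 4 and 6. The highest values came from Ptk7 cKO 5 and control 3, 1 in each group. Its log2 fold change was 0.00 (SE 0.11, edgeR adjusted p = 0.994), with a 95% interval from -0.24 to 0.25, and -0.08 (SE 0.11, edgeR adjusted p = 0.834) without the library labelled Ptk7 cKO 5.

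Ptch1 and Hhip did not follow Gli1 from library to library. Control 3 had the highest Ptch1 and Hhip and the lowest Gli1. Without control 3 the edgeR log2 fold changes were -0.32 for Ptch1 and -0.64 for Hhip, the smallest falls with 1 library left out. Ptch1 per Gli1 was 3.96, 4.59, 4.12 and 3.48 in the libraries labelled Ptk7 cKO 1, 2, 4 and 5, against 5.14, 8.86, 5.52 and 4.17 in controls 1, 3, 4 and 6, with 1 library of Ptk7 cKO (2) above the lowest control. Hhip per Gli1 was 0.425, 0.575, 0.530 and 0.420 in Ptk7 cKO, against 0.659, 1.32, 0.958 and 0.624 in control, without overlap. These ratios were chosen after the values were seen and are given without a test.

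**Figure D4:**
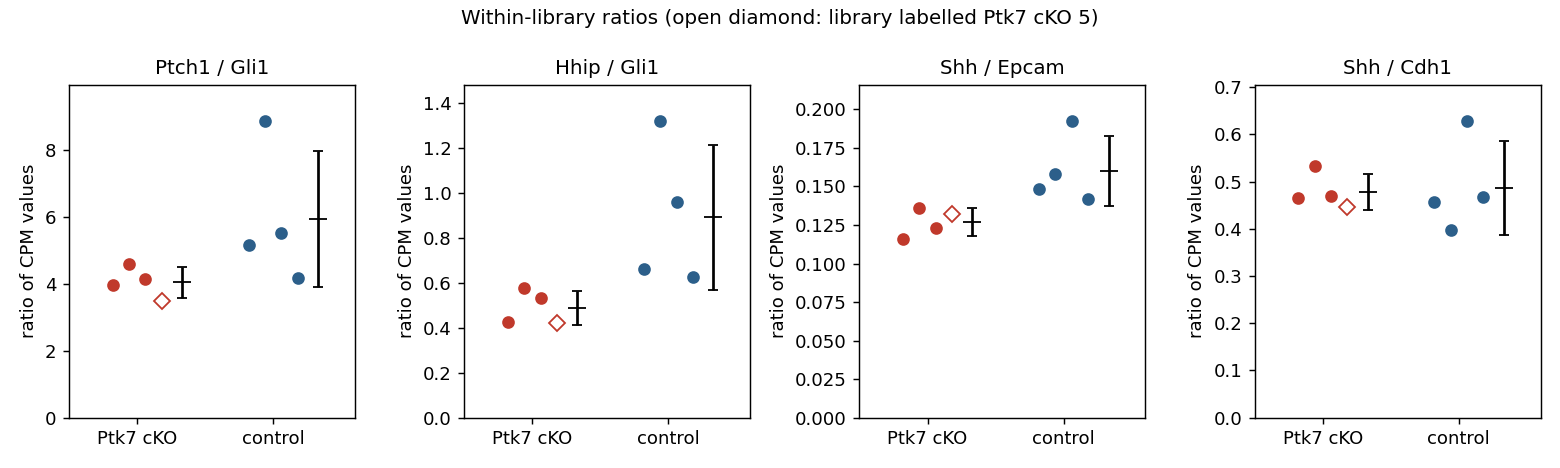
Ratio of CPM values within each library for Ptch1 and Hhip over Gli1 and for Shh over Epcam and Cdh1, 1 point per library, Ptk7 cKO left of control, with the mean and SD (n = 4 each) and an open diamond for the library labelled Ptk7 cKO 5. The groups are separate for Hhip over Gli1 and Shh over Epcam and overlap for Ptch1 over Gli1 and Shh over Cdh1.

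Levels of the mesenchymal cells that usually hold the receptor side of the pathway are given beside Ptch1 and Hhip. The 12 mesenchyme markers summed to 19665 to 25183 CPM in Ptk7 cKO and 17673 to 22586 CPM in control, with 0 higher and 1 lower (Pdgfra) at an unadjusted edgeR p under 0.05. The 9 smooth muscle markers summed to 2564 to 3260 CPM in Ptk7 cKO and 3278 to 3911 CPM in control, without overlap, and 5 had an unadjusted edgeR p under 0.05 with a lower mean, 1 with a higher mean. The 5 mesothelium markers summed to 555 to 717 CPM in Ptk7 cKO and 435 to 519 CPM in control, without overlap, and 3 had a higher mean at an unadjusted edgeR p under 0.05. These were Myrf (0.60), Wt1 (0.43) and Upk3b (0.31 on the log2 scale), and 0 were lower. The part of these cell types in the Ptch1 and Hhip values was not tested.

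Of the other Hedgehog pathway genes, 82 of the 86 examined were tested, with a median log2 fold change of 0.01. The groups did not overlap in 4 of the 82 (Disp2, Gas1, Nr2f1 and Wnt4), beside 5.76% of all tested genes. edgeR gave 3 higher and 3 lower at an unadjusted p under 0.05, close to the shares over all genes, and called 0 after adjustment. The counts were 3 higher and 4 lower with Ptk7 cKO 5 left out. Among the 10 genes of ligand production and release, 0 were higher and 2 lower. Disp2, a relative of the ligand-releasing transporter Disp1, had 4.72, 7.21, 4.73 and 4.38 CPM in the libraries labelled Ptk7 cKO 1, 2, 4 and 5, against 8.02, 13.2, 10.2 and 7.57 CPM in controls 1, 3, 4 and 6, without overlap. Its log2 fold change was -0.89 (SE 0.21, edgeR adjusted p = 0.231), and DESeq2 called it lower (adjusted p = 0.0107), a call lost with Ptk7 cKO 5 left out (-0.81, DESeq2 adjusted p = 0.059). The glypican Gpc4 averaged 55.6 ± 8.66 CPM in Ptk7 cKO and 73.6 ± 9.51 CPM in control (log2 fold change -0.41, edgeR adjusted p = 0.358). DESeq2 did not call Gpc4 over all 8 libraries (adjusted p = 0.154) and called it lower with Ptk7 cKO 5 left out (-0.49, adjusted p = 0.0496). Gpc3, a glypican that restrains Hedgehog signalling in mice, had the highest level per kilobase of this list (308 CPM per kilobase) and a log2 fold change of -0.01. Disp1 itself and Hhat, which attaches the palmitate of the ligands, had log2 fold changes of 0.09 and -0.04.

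Among the 4 co-receptors, which present ligand to Ptch1, none had an unadjusted edgeR p under 0.05. Gas1, the most abundant at 245 CPM per kilobase, had 798, 847, 824 and 813 CPM in the libraries labelled Ptk7 cKO 1, 2, 4 and 5, against 715, 348, 726 and 732 CPM in controls 1, 3, 4 and 6. Every library labelled Ptk7 cKO lay above every control, and control 3 stood far below the other controls. The log2 fold change of 0.38 (SE 0.20) did not pass (unadjusted p = 0.079, edgeR adjusted p = 0.652). Cdon averaged 233 ± 18.9 CPM in Ptk7 cKO and 208 ± 6.01 CPM in control (log2 fold change 0.16, edgeR adjusted p = 0.618), and Boc had a log2 fold change of 0.05.

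No gene among 25 tested GLI regulators or 23 cilium and transport genes had an unadjusted edgeR p under 0.05. Their log2 fold changes ran from -0.26 to 0.28 and from -0.12 to 0.17. Sufu, the cytoplasmic inhibitor of GLI proteins, stood at -0.07, and the protein kinase A subunits Prkar1a and Prkaca, the most abundant of the regulators per kilobase (90.3 and 66.7 CPM per kilobase), stood at 0.00 and 0.10. The intraflagellar transport genes Ift27 (33.0 CPM per kilobase) and Ift52 (17.8 CPM per kilobase) stood at -0.06 and 0.02. Zic2, a zinc finger factor related to GLI proteins, was near 0 at 0.01 CPM and was not tested.

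Of the 21 tested genes reported to respond to Hedgehog in mesenchyme of other organs, 3 were higher and 1 lower at an unadjusted edgeR p under 0.05, with a median log2 fold change of 0.02. Higher were Wnt4, a secreted WNT ligand (0.49, SE 0.10), Osr1, a zinc finger factor of intermediate mesoderm (0.57, SE 0.18), and the nuclear receptor Nr2f1 (0.32, SE 0.10), with edgeR adjusted p of 0.161, 0.386 and 0.367. Wnt4 had 75.9, 77.6, 78.5 and 79.3 CPM in the libraries labelled Ptk7 cKO 1, 2, 4 and 5, against 64.3, 45.5, 58.3 and 53.2 CPM in controls 1, 3, 4 and 6, without overlap. DESeq2 called Wnt4 higher (adjusted p = 0.00245, and 0.0172 with Ptk7 cKO 5 left out). Osr1 had 15.5, 11.9, 15.5 and 12.2 CPM in the libraries labelled Ptk7 cKO 1, 2, 4 and 5, against 12.4, 7.49, 7.06 and 10.2 CPM in controls 1, 3, 4 and 6. Lower was Myocd, a coactivator of smooth muscle genes (-0.32, SE 0.12, edgeR adjusted p = 0.491), whose direction is also that of the summed smooth muscle markers. The most abundant per kilobase, the secreted WNT inhibitor Sfrp1 (199 CPM per kilobase) and the zinc finger factor Osr2 (109.6 CPM per kilobase), stood at 0.00 and 0.01. Foxf1, a direct target in gut mesenchyme of mice, averaged only 2.22 CPM over all libraries, with a log2 fold change of 0.03.

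**Figure D5:**
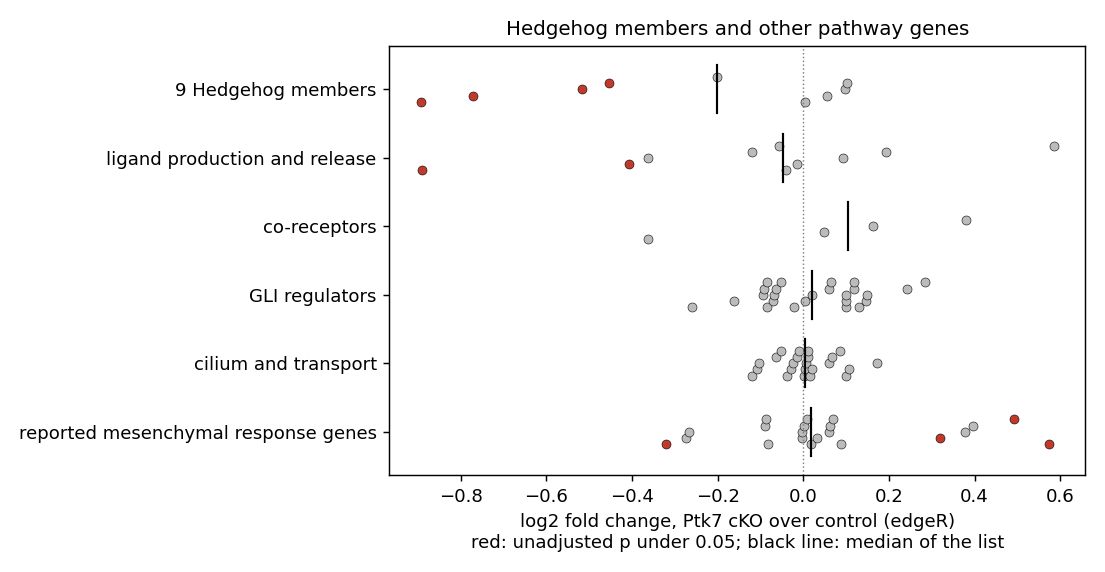
log2 fold change (Ptk7 cKO over control, edgeR) of each tested gene, in the 9 Hedgehog members and 5 lists of other pathway genes, with red for an unadjusted p under 0.05 and a black line at each median. The 4 red members lie below 0, while the GLI regulators and cilium genes lie between -0.26 and 0.28 with none in red.

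The genes most like Gli1 in their profile over the 8 libraries, by root mean square difference of centred log2 CPM, were Kdm4a (0.033), Emc8 (0.037) and Tnip1 (0.040), where the median over 13327 genes compared was 0.204. For Shh they were B4galnt2 (0.094), Rab11fip4 (0.111) and Cdh16 (0.119), where the median was 0.384. A gene that varies little between libraries, as Gli1 does, lies close to many others by this measure.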

How the data were processed

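The authors deposited raw counts per gene for 8 libraries, with the summed exon length of each gene. STAR, featureCounts and GRCm38 are named in the submitters' processing notes. The sources used here do not state their versions, the strand setting, the treatment of multi-mapping reads or the annotation release, so reads from exons that overlap on either strand (Shh, Dhh, Gli1, Gli3 and Hhip have such overlaps in GENCODE M21) cannot be assigned with certainty. Symbols were matched by Ensembl identifier for 46005 of 46517 genes. Of the listed genes, 1 (Ift25) was not matched, and 1 other is not reported here.

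Counts were tested with edgeR 4.0.16 in R 4.3.3 (TMM factors, filterByExpr, quasi-likelihood F test on group, Benjamini-Hochberg adjustment over 16469 genes, threshold 0.05). The SE is the log2 fold change divided by sqrt(F), an approximation, and 95% intervals use the t distribution. The biological coefficient of variation was 15.2%, and low genes such as Dhh carry added counting error. Alternatives were DESeq2 1.42.0, limma 3.58.1 voom, other scaling factors and filters, an exact permutation test, a replicate block, and leaving out each library; DESeq2 without the library labelled Ptk7 cKO 5 was added after seeing the data. The members and lists were chosen with earlier results of these data known. Genes named beyond the members were, in each other pathway list, those with an unadjusted p under 0.05 and the 2 highest per kilobase. Disp1, Hhat, Boc, Lrp2, Sufu, Foxf1 and Zic2 were named after their values were seen. No pair of libraries looked like a duplicate (chi-square over its degrees of freedom was 13.7 to 81.7). The code was tested on simulated counts. Figures used matplotlib 3.10.9.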

Additional observations from a re-analysis of the deposited data

Results flagged for a closer look

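Among 50 groups of 4 libraries examined for the members, Ptk7 and the named pathway genes, 3 held a library far from the other 3, where chance flags about 1 in 20 groups. Ptk7 stood at 194.3 CPM in the library labelled Ptk7 cKO 5, where the others of that label had 7.33 to 12.5 CPM. Disp2 stood at 7.21 CPM in the library labelled Ptk7 cKO 2, where the others of that label had 4.38 to 4.73 CPM. Gas1 stood at 348 CPM in control 3, where the other controls had 715 to 732 CPM.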

How the results depend on the processing

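Shh, Ihh, Ptch1, Smo, Gli2 and Hhip kept their direction in all 17 alternatives each. Hhip passed the threshold in DESeq2 (-0.77, or -0.72 without the library labelled Ptk7 cKO 5) and in no other alternative (lowest adjusted p 0.00599, highest 0.496). Leaving out 1 library at a time gave log2 fold changes of -0.69 to -0.42 for Shh, -1.50 to -0.67 for Ihh, -0.66 to 0.071 for Dhh, -0.54 to -0.32 for Ptch1, -0.030 to 0.11 for Gli1, -0.084 to 0.085 for Gli3, -0.88 to -0.64 for Hhip and -4.42 to -1.46 for Ptk7, with 0 to 2 genes called over all genes and 3 to 4 members at an unadjusted p under 0.05. Dhh turned when control 4 (0.023) or Ptk7 cKO 2 (0.071) was left out, and gave no value under a CPM filter of 1 in 4 libraries. Gli1 turned when control 3 was left out (-0.030) and with limma voom (-0.014) and Gli3 with upper-quartile factors (-0.00071), when control 1, 4 or 6 (-0.035, -0.016 and -0.016) or Ptk7 cKO 4 or 5 (-0.012 and -0.084) was left out and with DESeq2 without the library labelled Ptk7 cKO 5 (-0.082); the cause was not tested. Genes called over all genes numbered 1 with no filter on low counts, 184 in DESeq2 and 177 in DESeq2 without the library labelled Ptk7 cKO 5, where Ptk7 was at -4.42. By exact two-sided permutation of log2 CPM, Hhip had p = 0.0286, the smallest possible with 4 against 4. The groups share the numbers 1 and 4, and deviations from the group means correlated at -0.092 and 0.023 between same-numbered libraries. These 2 correlations showed no pairing by number but cannot exclude it. The replicate block over the 4 libraries with these numbers gave Shh -0.84 (edgeR adjusted p = 0.0902), Gli1 -0.011 and Ptk7 -4.67, with 7 genes called. With only 4 libraries for group and number, this fit holds little information on spread and is less reliable than the 8-library fit. The replicate block put 11 other pathway genes at an unadjusted edgeR p under 0.05, against 6 in the 8-library fit. That count was 10 with no filter on low counts and 6 to 9 with 1 library left out. Dhh rests on 5 to 24 counts per library.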
